A study of Homo sapiens with 2 samples.

Results

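The results concern every RNA contact of Flag-RBM47 that the deposited table assigned to a microRNA gene or to the transcript that carries one. RBM47 is an RNA-binding protein with RNA recognition motifs. The cells were MDA231-BrM2a, a brain metastatic and non-clonal line derived from MDA-MB-231 breast cancer cells, carrying Flag-tagged wild-type RBM47 under doxycycline control. Both libraries came from cells kept in 1 ng/ml doxycycline for 3 days and then irradiated with ultraviolet light, so that the tagged protein is an introduced one and the endogenous protein was not assayed. In HITS-CLIP the irradiation joins a protein to the RNA that it touches, the protein is recovered through its tag, and the joined RNA fragments are sequenced. The unique reads, called tags, were grouped into clusters along the genome. There was 1 group of 2 replicates and no library without the tagged protein was analysed, which leaves the background in the tags unmeasured. By autoradiogram, the paper saw no labelled RNA with empty-vector cells or with cells that were not irradiated. The labels do not say whether the replicates were separate cultures, and the spread between them may be technical.

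Members were the clusters whose gene symbol began with MIR and a digit or with MIRLET and a digit. The rule used names only and no measured value. It found 1050 of 233546 clusters, or 0.450%, which carried 36 different symbols. All 36 gene IDs were found in RefSeq under the same symbol. The table held 999047 tags from replicate 1 and 3489697 from replicate 2. Each listed cluster had at least 1 tag in each library and at least 5 in all, so an RNA with fewer tags has no entry, and a symbol without an entry cannot be called free of contacts.

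MicroRNAs are short RNAs that pair with target messages through their seed, bases 2 to 8 from the 5′ end, and lower the output of those messages. They are cut from a hairpin by DROSHA in the nucleus and by DICER1 in the cytoplasm. Many hairpins lie in introns of longer genes, called hosts, so that a protein that binds the unspliced host RNA contacts the RNA from which the microRNA is made. A tag inside a microRNA gene may therefore come from the host transcript, the hairpin or the mature microRNA, and the table does not say which.

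The symbols fell into 3 classes that have to be read apart. The 6 symbols ending in HG named host transcripts and held 728 clusters. A further 17 symbols named a microRNA on the chromosome where RefSeq places it and held 18 clusters. The last 13 symbols named a microRNA that RefSeq places on another chromosome than the one listed, and these held 304 clusters. The last class is described at the end, since its symbols spread over stretches of up to 268 kb that no hairpin fills.

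The mature sequences that the results turn on are given here, from RefSeq on GRCh38.p14, written 5′ to 3′ with the seed in capitals. Sequences were found for 27 of the 30 microRNA symbols that are not host transcripts, in all 37 mature names of 18 to 24 nt. The first set belongs to the 7 symbols whose cluster was 40 nt or shorter, or whose hairpin neighbours such a cluster.

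hsa-miR-503-5p: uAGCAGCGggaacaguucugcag

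hsa-miR-503-3p: gGGGUAUUguuuccgcugccagg

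hsa-miR-424-5p: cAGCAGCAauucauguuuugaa

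hsa-miR-454-3p: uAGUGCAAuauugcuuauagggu

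hsa-miR-454-5p: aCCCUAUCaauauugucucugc

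hsa-miR-374b-5p: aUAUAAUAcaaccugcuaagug

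hsa-miR-374b-3p: cUUAGCAGguuguauuaucauu

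hsa-miR-374a-3p: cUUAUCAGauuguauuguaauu

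hsa-miR-455-5p: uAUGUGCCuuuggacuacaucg

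hsa-miR-455-3p: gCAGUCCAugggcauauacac

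hsa-miR-193b-3p: aACUGGCCcucaaagucccgcu

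hsa-miR-193b-5p: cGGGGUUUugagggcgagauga

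The next 4 are shown for contrast. Let-7a is the product of a hairpin inside the most heavily tagged host, MIR100HG, and the other 3 belong to symbols listed on a chromosome that RefSeq does not give them.

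hsa-let-7a-5p: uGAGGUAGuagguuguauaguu

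hsa-miR-548ap-5p: aAAAGUAAuugcggucuuu

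hsa-miR-548w: aAAAGUAAcugcgguuuuugccu

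hsa-miR-3134: uGAUGGAUaaaagacuacauauu

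The 37 mature names had 36 distinct seeds, and the pair that shared a seed was miR-548ap-5p and miR-548w, whose seed 12 mature names in RefSeq carry. The seed of let-7a-5p is carried by 11 names, that of miR-424-5p by 7, among them miR-15a-5p, miR-15b-5p, miR-16-5p and miR-195-5p, and that of miR-454-3p by 6. The seed of miR-503-5p was carried by no other name.

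The clusters with a microRNA symbol held 5706 tags of replicate 1 and 20126 of replicate 2. This was 5.74 ± 0.0395 tags per 1000 tags of the replicate in the table (SD, n = 2), or 5711 and 5767 normalised tags in the separate libraries, where normalised tags are tags per 1000000 tags of the replicate in the table. The level of the whole class was thus alike in the libraries. The median cluster held 9 tags against 8 over all clusters, and 49.1% of the clusters (Wilson 95% interval, 46.1 to 52.2) held at least 10 tags against 40.7% of all. At least 100 tags were found in 40 clusters, or 3.81%, against 1.93% of all clusters. Much of this came from 1 symbol, since MIR100HG alone supplied 253 of the 516 clusters with at least 10 tags. Of its clusters, 22 in introns and 8 in exons held at least 100. By class, 56.6% of host transcript clusters held at least 10 tags, against 77.8% for symbols on their own chromosome and 29.6% on another. All intervals cover counting error only, and neighbouring clusters of the same transcript are not independent.

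Introns made up most of these contacts. The authors' label was intron for 949 of the 1050 clusters, or 90.4% (88.5 to 92.0), against 56.2% of the clusters with a gene symbol. A further 38 clusters lay in exons that are neither coding nor untranslated, the label exon_unclassified, and 63 carried a coding or UTR label. The baseline is unlike, since 42.8% of the clusters with a gene symbol carried a coding or UTR label. Noncoding hosts have no coding sequence. By intron and exon_unclassified labels alone, the counts were 949 and 38 here, against 95643 and 1668 with a gene symbol. Among these labels the intron share was thus not above that of the clusters with a gene symbol. The distribution over classes was uneven. Host transcripts held 19296 tags by the authors' total, or 75.4% of the 25581 tags with a microRNA symbol. The 17 symbols on their own chromosome held 2933 tags, or 11.5%, in 18 clusters, and the 13 symbols on another chromosome held 3352 tags, or 13.1%, in 304 clusters. The median cluster had 11 tags in the host transcripts, 25.5 in the symbols on their own chromosome and 7 in the symbols on another chromosome.

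Levels of the symbols ranged from 5 tags to 14101. Of the 36 symbols, 16 or 44.4% held over 100 tags, close to the 49.3% of all 7712 genes in the table, and 5 ranked among the first 1000 genes. The levels in the 2 libraries followed each other across the 36 symbols (Spearman's rho 0.900, Pearson's r of log2 normalised tags 0.944, as a description, since both libraries come from the same cells and low symbols share the same minimum). In 25 symbols the normalised tags differed by less than 2-fold between libraries. Of the 16 symbols with over 100 tags, 15 did so, and MIR503 did not.

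**Figure D1:**
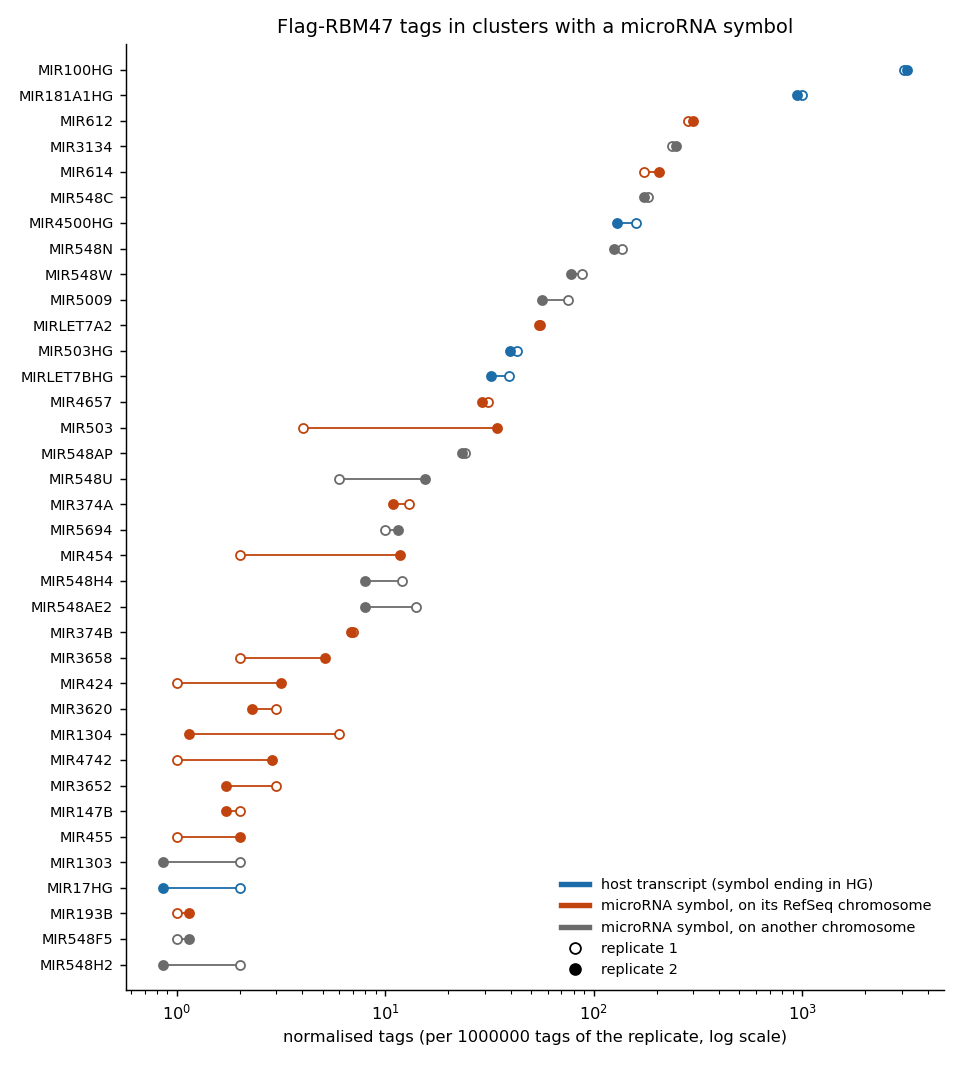
Normalised tags, as tags per 1000000 tags of the replicate (x axis, log scale) for each of the 36 symbols (y axis, ordered by total tags), with open circles for replicate 1, filled circles for replicate 2 and colour for the class of the symbol. MIR100HG stood highest at 3094 and 3192 normalised tags, and MIR503 at 4.004 and 34.4 had the widest gap among the symbols with over 100 tags.

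MIR100HG, the long noncoding host of miR-100, let-7a-2 and miR-125b-1, held more tags than all other microRNA symbols together. Its 339 clusters on the minus strand of chromosome 11 (hg18, chr11:121465022-121555834) had 3091 tags in replicate 1 and 11138 in replicate 2, or 3094 and 3192 normalised tags (mean 3143 ± 69.1 SD, n = 2). The libraries differed by little beside the distance to the next symbol. With 14101 tags by the authors' total it ranked 13th of 7712 genes and held 55.1% of all tags with a microRNA symbol. Clusters covered 58.7% of its 90.8 kb span, with a median gap of 17 nt between neighbours and a widest gap of 4111 nt. Clusters were thus closely spaced over much of MIR100HG, with stretches left uncovered.

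The intron clusters of MIR100HG were also deep. Its 313 intron clusters had a median of 21 tags against 7 over all intron clusters in the table, and 74.1% held at least 10 tags against 28.7%. Its 23 exon_unclassified clusters had a median of 42 tags against 9 over all clusters with that label. Per 1000 nt of cluster its introns held 253 tags against 115 over all intron clusters, while its exons held 374 against 787 over all exon_unclassified clusters. The exons of MIR100HG were thus above the table by the median cluster and below it by density. The density over the table is pooled, and 1 cluster with that label held 72767 of its 219361 tags. Introns nevertheless supplied 12184 of the 14101 tags, since they covered far more of the transcript.

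The tags of MIR100HG were concentrated along its length. Distance was counted from the 5′-most cluster, and in 10 kb windows the first held 0.908% of the tags and the next 1.02%. The window from 30 to 40 kb held 18.7%, that from 40 to 50 kb 16.7%, and that from 80 to 90 kb 24.8%. In replicate 1 the window from 80 to 90 kb held 25.4% and in replicate 2 24.5%, so the same stretches were high in each library. The first 10 clusters by tags held 23.2% and the first 50 held 55.6%.

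The deepest cluster of MIR100HG was an intron cluster of 921 nt (hg18, chr11:121524282-121525203) with 138 tags in replicate 1 and 492 in replicate 2, or 138 and 141 normalised tags. Next came an intron cluster of 983 nt near the 3′ end (hg18, chr11:121469263-121470246) with 128 and 415 tags. A further 2 intron clusters held 319 and 312 tags. The deepest exon_unclassified cluster, of 738 nt at the 3′ end (hg18, chr11:121465147-121465885) had 60 and 204 tags and came after these 4 intron clusters.

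MIRLET7A2, the gene of a hairpin that yields let-7a, had a cluster of 693 nt (hg18, chr11:121522484-121523177, minus strand) labelled exon_unclassified. It held 55 tags in replicate 1 and 191 in replicate 2, or 55.1 and 54.7 normalised tags. The levels were nearly equal in the libraries. The RefSeq hairpin is 72 nt, so the cluster was far longer than the hairpin it was named for. MIR100HG clusters lay 71 nt away with 21 tags and 270 nt away with 130 tags, and RefSeq places the hairpin inside MIR100HG. Another 4 clusters inside the span of MIR100HG carried the symbol BLID, a gene of a small pro-apoptotic protein, with 82 tags.

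MIR181A1HG, the host of miR-181a-1 and miR-181b-1, was the next host transcript. Its 277 clusters on the minus strand of chromosome 1 (hg18, chr1:197074069-197170952) had 996 and 3313 tags in the libraries, or 997 and 949 normalised tags (mean 973 ± 33.7 SD, n = 2). It ranked 100th of 7712 genes with 4261 tags. Introns carried 271 of its clusters, with a median of 10 tags, and 6 were exon_unclassified. The window from 40 to 50 kb held 42.1% of the tags, at 41.0% in replicate 1 and 42.2% in replicate 2. The next window, from 50 to 60 kb, held 17.9%, against 8.12% in the first 10 kb and 3.10% in the last, so that most contacts lay in the middle of the span.

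The other 4 host transcripts were lower and none ranked among the first 1000 genes. MIR4500HG on chromosome 13 had 79 clusters, all in introns, with 160 and 453 tags, or 160 and 130 normalised tags. Its median cluster held 7 tags, the same as all intron clusters in the table. MIRLET7BHG, the host of let-7a-3 and let-7b on chromosome 22, had 20 intron clusters with 39 and 112 tags. MIR503HG had 12 clusters on chromosome X with 43 and 139 tags, and MIR17HG, the host of the miR-17-92 hairpins, had a single exon cluster of 2 and 3 tags. MIR100HG and MIR181A1HG therefore stood apart from the remaining hosts by their tags. Clusters covered 29.4% of the span of MIR181A1HG and 6.85% of that of MIR4500HG, against the 58.7% of MIR100HG.

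**Figure D2:**
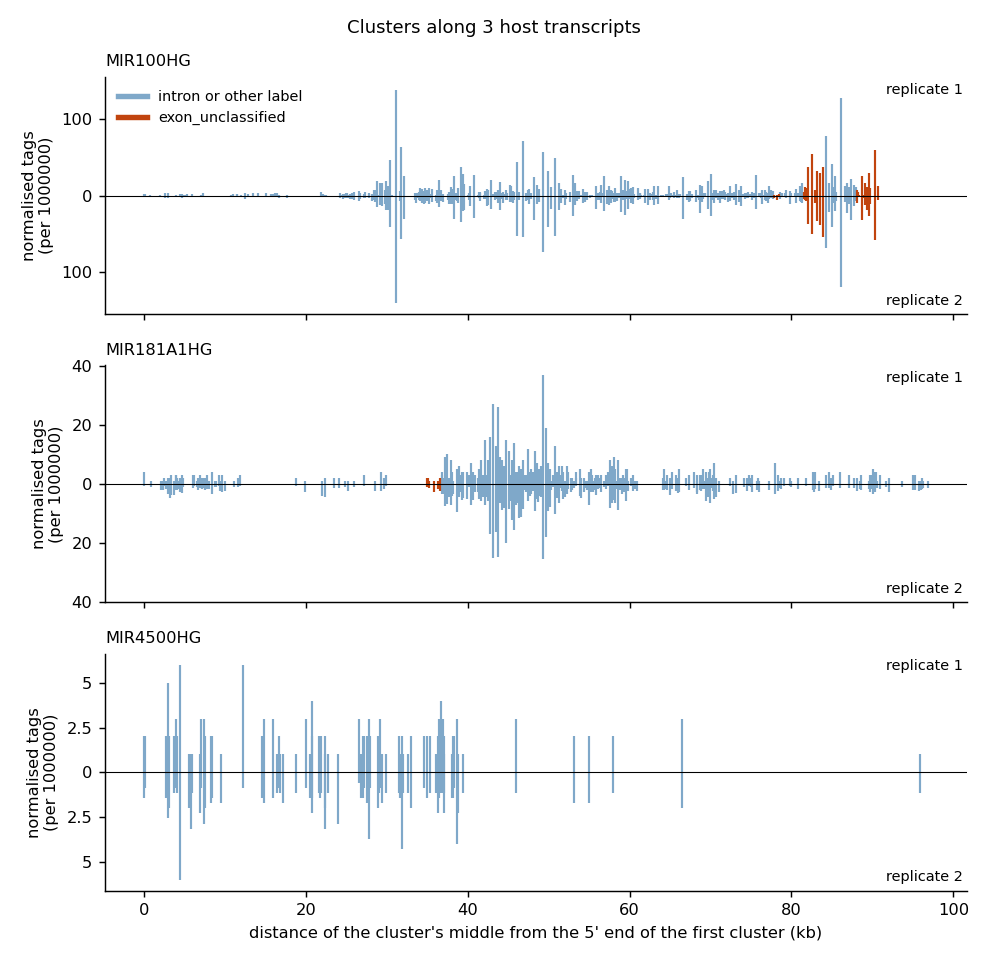
Normalised tags of each cluster, per 1000000 tags of the replicate (y axis, replicate 1 upward and replicate 2 downward) against distance from the 5′ end of the first cluster in kb (x axis) for MIR100HG, MIR181A1HG and MIR4500HG, with exon_unclassified clusters in a darker colour. The 2 libraries mirror each other in MIR100HG, where the window from 80 to 90 kb held 24.8% of the tags, and in MIR181A1HG, where the window from 40 to 50 kb held 42.1%, while no cluster of MIR4500HG exceeded 27 tags.

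Of the 17 symbols on their own chromosome, 16 lie inside another gene in RefSeq, and MIR424 does not. Strand could be compared for 16, and all 16 lay on the strand of the microRNA. Their 18 clusters ranged from 22 to 1240 nt and fell into 3 kinds by length. The longest, named for MIR612, MIR614, MIRLET7A2 and MIR4657, exceeded the 53 to 131 nt of the RefSeq genes of this class. A middle set from 55 to 108 nt was about as long as a hairpin, and a short set of 22 to 40 nt came close to a mature microRNA.

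MIR612 had the most tags of any microRNA that is not a host. Its single cluster of 1240 nt (hg18, chr11:64968345-64969585, plus strand) held 282 and 1040 tags, or 282 and 298 normalised tags. By the authors' label it was an intron cluster, and its 1322 tags were the most of the 99388 clusters with that label. RefSeq places MIR612 inside NEAT1, the long noncoding RNA that scaffolds nuclear paraspeckles. In the table, 8 clusters without a gene symbol lay within 5 kb on the same strand with 6489 tags, and the nearest, 26 nt away, held 2391. Clusters named NEAT1 lay just beyond them, the closest 4626 nt from MIR612, and 2 of them in the same 5 kb held 9738 tags. Those 2 were labelled exon_unclassified, and the 8 without a symbol as downstream and upstream of genes. The label thus changed along the run, and the intron label alone does not set the MIR612 cluster apart from it. The cluster named for MIR612 was thus part of a dense run of contacts that began in clusters named for NEAT1.

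MIR614 was placed likewise. Its 2 exon_unclassified clusters on the plus strand of chromosome 12 (hg18, chr12:12959869-12960920) held 174 and 721 tags, or 174 and 207 normalised tags. RefSeq places it inside GPRC5A, a retinoic acid-induced membrane receptor, whose own 7 clusters held 1111 tags. Within 5 kb, 9 clusters without a symbol held 2550 tags and 3 named GPRC5A held 994, so MIR614 held 893 of the tags of a longer run. MIR4657 had a 3′UTR cluster of 316 nt with 31 and 101 tags, 7 nt from a cluster named PURB and overlapping another by 1 nt. PURB, a single-stranded nucleic acid-binding protein, had 33 clusters with 2556 tags.

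The clusters of hairpin length were shallow. MIR3658 in the 3′UTR of UCK2, a uridine-cytidine kinase, had 2 and 18 tags, and a UCK2 cluster with 32 tags lay 7 nt away. MIR424 had 1 and 11 tags over 108 nt. MIR3620 in ARF1, a GTPase of vesicle traffic, had 3 and 8 tags in coding sequence. MIR1304 in TAF1D, MIR4742 in WDR26, MIR3652 in HSP90B1 and MIR147B had between 8 and 10 tags each. The hosts of 4 of these held far more, with 1758 tags for HSP90B1, the chaperone of the endoplasmic reticulum, 1292 for WDR26, 388 for TAF1D, a subunit of the RNA polymerase I selectivity factor, and 289 for ARF1. The host of MIR147B, C15orf48, had no cluster under its own name, and the nearest cluster on that strand lay 169080 nt away. The MIR147B cluster was itself labelled 3′UTR, and a microRNA gene has no UTR of its own. The clusters named for MIR3652, MIR4742, MIR1304 and MIR3620 thus held few tags beside the gene around them, and the 8 tags of MIR147B were all that was listed there.

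The short set was the one whose length matched a mature microRNA. Of the 18 clusters on their own chromosome, 5 were 30 nt or shorter, or 27.8% (12.5 to 50.9), against 1865 of all 233546 clusters, or 0.799%. They were MIR503 and MIR454 at 27 nt, MIR455 at 24 nt, MIR374B at 23 nt and MIR193B at 22 nt, where the mature sequences printed above have 21 to 23 nt. Host transcripts had 3 clusters of that length in 728 and the symbols on another chromosome 5 in 304. All 5 lay in introns by the authors' label. The genome of the file's build was not used here, so whether a cluster lies on the 5p or the 3p arm was not determined.

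**Figure D3:**
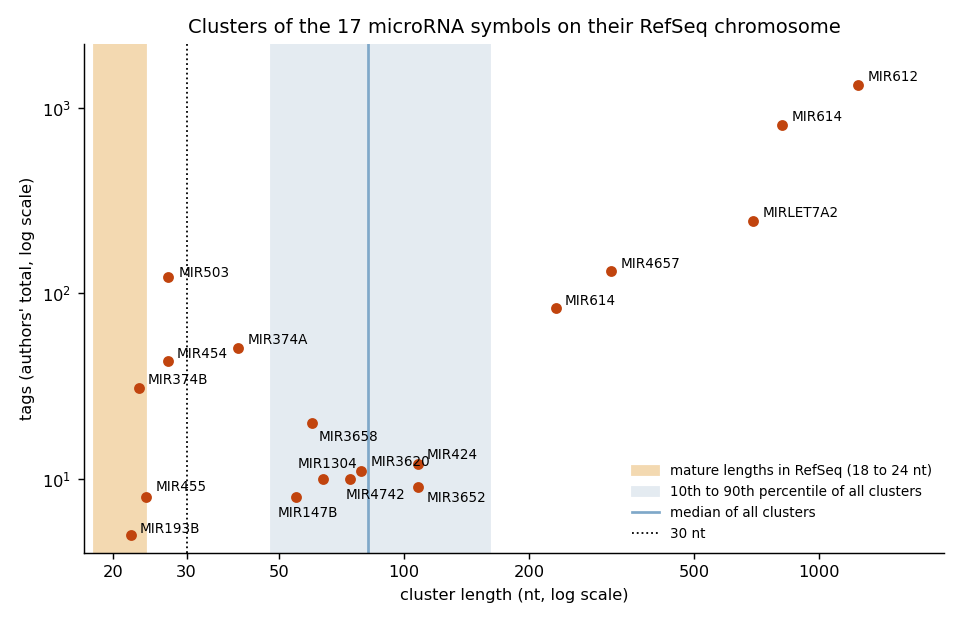
Length in nt (x axis, log scale) and tags by the authors' total (y axis, log scale) of the 18 clusters of the 17 microRNA symbols on their RefSeq chromosome, with bands for the mature lengths of 18 to 24 nt and for the 10th to 90th percentile of all clusters, 48 to 161 nt, and a line at their median of 82 nt. MIR503, MIR454, MIR374B, MIR455 and MIR193B sit at or near the mature lengths, whereas MIR612, MIR614, MIRLET7A2 and MIR4657 lie above the 90th percentile.

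MIR503, which belongs with MIR424 to the extended miR-15 family, had the deepest short cluster (hg18, chrX:133508063-133508090, minus strand). It held 4 tags in replicate 1 and 120 in replicate 2, and 123 by the authors' total, or 4.56 tags per nt. By total tags it was the 5th highest of the 1865 clusters of 30 nt or shorter and the 2nd of the 1228 of these with a gene symbol. The median over all short clusters was 6 tags. In RefSeq on GRCh38.p14 miR-503-5p lies at chrX:134546371-134546393 and miR-503-3p at chrX:134546331-134546353, on the same strand. The host MIR503HG had no cluster of 30 nt or shorter, and its deepest cluster held 44 tags. Its nearest clusters held 9 tags at 184 nt and 8 tags with an overlap of 1 nt, so MIR503 exceeded the nearest clusters on each side in replicate 2. Further along the strand it was not the deepest, since 15 clusters without a symbol within 5 kb held 603 tags, among them 1 with 17 and 99 tags in the libraries at 991 nt and 1 with 23 and 118 at 1225 nt. In replicate 1 MIR503, at 4 tags, was lower than both of these.

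MIR454 had a short intron cluster in SKA2, a gene of the kinetochore (hg18, chr17:54569926-54569953, minus strand), with 2 tags in replicate 1 and 41 in replicate 2. The nearest SKA2 clusters lay 886 and 2166 nt away with 5 tags each. In replicate 2 MIR454 had 41 tags against 4 for each of these neighbours, and in replicate 1 it had 2 against 1 for each. SKA2 as a whole held 299 tags in 15 clusters. By total tags it was the 6th of the short clusters with a symbol.

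MIR374B and MIR374A lie in FTX, a long noncoding RNA of the X chromosome whose own 439 clusters held 8678 tags and ranked it 27th of 7712 genes. MIR374B (hg18, chrX:73355145-73355168, minus strand) had 7 and 24 tags over 23 nt, or 7.01 and 6.88 normalised tags. MIR374A (hg18, chrX:73423866-73423906, minus strand) had 13 and 38 tags over 40 nt, or 13.0 and 10.9 normalised tags. The libraries were close to each other for both. FTX clusters had a median of 92 nt and 13 tags, and the 3 of 30 nt or shorter held at most 10 tags. Both microRNA clusters were thus shorter than the usual FTX cluster and held more tags than its median. By tags MIR374B, at 31, was not the deepest in its surroundings, since FTX clusters 239 and 2590 nt away held 42 and 55. The deepest FTX cluster held 153 tags, more than either microRNA cluster.

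MIR455 and MIR193B were shallow and isolated. MIR455 had 1 and 7 tags over 24 nt (hg18, chr9:116011585-116011609, plus strand), and the nearest cluster on that strand lay 388170 nt away. MIR193B had 1 and 4 tags over 22 nt (hg18, chr16:14305374-14305396, plus strand), with the nearest cluster 41390 nt away. Their RefSeq hosts COL27A1, a collagen gene, and MIR193BHG had no cluster. These were contacts with no cluster named for the host around them, at 8 and 5 tags in all.

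The split of tags between the libraries set some of the short clusters apart. Replicate 1 supplied 22.3% of all tags in the table, and each cluster was compared with that share by a two-sided exact binomial test with Benjamini-Hochberg adjustment over 233546 clusters. Of these, 26 clusters or 0.0111% had an adjusted p under 0.05, and 1 of the 1050 clusters with a microRNA symbol did. That cluster was MIR503, where replicate 1 supplied 3.23% of the tags (1.26 to 8.001), with 4.004 normalised tags in replicate 1 against 34.4 in replicate 2 (exact binomial p = 3.93e-09, adjusted p = 7.64e-05). The test compares these libraries and not conditions. At an unadjusted p under 0.05, the count was 15 of 1050, or 1.43%, against 2.10% of all clusters. The classes differed in this count, with 4 of the 18 clusters of the symbols on their own chromosome, or 22.2%, against 8 of 728 in host transcripts and 3 of 304 in symbols on another chromosome. The 4 were MIR503, MIR454, MIR1304, which had 6 and 4 tags and so a higher share of replicate 1, and the longer cluster of MIR614, and no cluster but MIR503 passed after adjustment. The classes also differed in depth, with a median of 25.5 tags on their own chromosome against 11 in host transcripts and 7 on another chromosome. A deep cluster reaches the threshold more readily, and the part of depth in the class counts was not tested.

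MIR454 leaned the same way, with 4.65% of its tags from replicate 1 (1.29 to 15.5), and missed the threshold (exact binomial p = 0.00347, adjusted p = 1). MIR374B did not lean, at 22.6% (11.4 to 39.8). The 5 short clusters together had 15 tags in replicate 1 and 196 in replicate 2, or 7.11% (4.36 to 11.4), and MIR503 and MIR454 supplied 6 and 161 of these. MIR503HG, by contrast, had 23.6% of its tags from replicate 1 (18.04 to 30.3), close to the share of the whole table, and the difference from MIR503 itself was not tested. The level of MIR503 thus rests on replicate 2 in the main.

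Over all clusters with at least 10 tags, the split differed between the shortest clusters and the longer ones. Among the 247 clusters of 30 nt or shorter with at least 10 tags, replicate 1 supplied 15.4% of the tags (14.5 to 16.3), against between 20.8% and 22.1% in each of the 4 classes of longer clusters. Of the 26 clusters that passed the test, 6 were 30 nt or shorter, and 5 of these had more replicate 2 tags than the share predicted. The part of fragment length in the result for MIR503 was not tested. Among the symbols with longer clusters MIR548U also had a low share, at 6 and 54 tags or 10.0% from replicate 1 (4.66 to 20.2), and none of its 5 clusters passed the test.

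**Figure D4:**
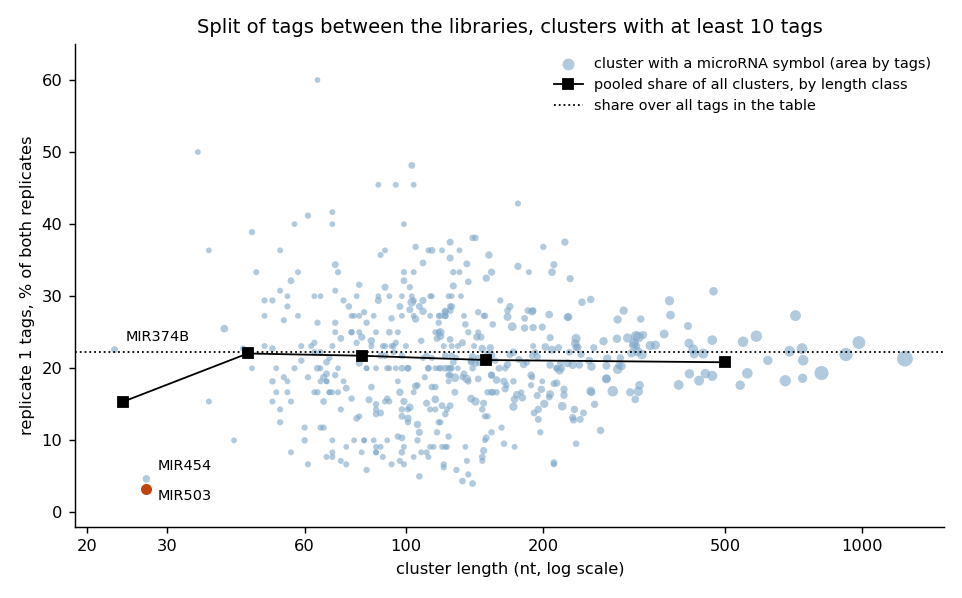
Share of tags from replicate 1 in percent (y axis) against cluster length in nt (x axis, log scale) for the 516 clusters with a microRNA symbol and at least 10 tags, with point area growing with tags, squares for the pooled share of all clusters with at least 10 tags in 5 length classes (each drawn at a point within its class) and a dotted line at 22.3%. MIR503, in a darker colour, had an adjusted p under 0.05, MIR454 lies beside it, and the pooled share of clusters of 30 nt or shorter was 15.4%.

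For the 13 symbols on another chromosome, the symbol and the listed place do not belong to the same microRNA gene in RefSeq. Of the 13, 9 were members of the MIR548 family, a large primate family derived from transposable elements. Of all 13, 8 spread over more than 20 kb, whereas the RefSeq genes are 67 to 111 nt long, and 8 had clusters labelled coding or UTR. A microRNA gene has no coding sequence. Such labels were not particular to this class. They were carried by 54 of its 304 clusters, or 17.8%, against 6 of the 18 on their own chromosome, or 33.3%. The values that follow describe the listed places, and no level of the named microRNA can be read from them.

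MIR3134, which RefSeq places on chromosome 3, was listed with 51 clusters on chromosome 9 and had 236 and 866 tags, or 236 and 248 normalised tags. Of its clusters 14 were labelled 3′UTR and 10 coding. In the same span and on the same strand lay 30 clusters of PTBP3, a polypyrimidine tract-binding protein, with 1696 tags and 10 of SUSD1 with 130 tags. Walking along the strand, the symbol changed 24 times between MIR3134 and PTBP3. The clusters of MIR3134 and of protein-coding genes were thus interleaved.

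MIR548C, placed by RefSeq on chromosome 12, had 59 clusters on chromosome 5 with 181 and 608 tags, 15 of them labelled coding. They alternated with 57 clusters of MAN2A1, a Golgi mannosidase, with 54 changes of symbol. MIR548W had 52 intron clusters on chromosome 17 with 88 and 271 tags, and alternated 54 times with 55 clusters of TANC2. MIR548N had 67 clusters on chromosome 2 with 136 and 434 tags, beside 25 of TTN-AS1, the antisense transcript of titin, and 3 of PLEKHA3. MIR5694 had 8 clusters among 7 of WDR11. In these 6 symbols, counting MIR548AE2 with LONP2, the listed spans were shared with other genes on the same strand.

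The medians of the interleaved clusters can be set side by side. MIR548C clusters had a median of 8 tags against 7 for MAN2A1, MIR548W 6 against 6 for TANC2, and MIR548N 7 against 6 for TTN-AS1, while MIR3134 had 15 against 26 for PTBP3 and 13.5 for SUSD1. MIR548N had 7 against 8 for PLEKHA3, MIR5694 6 against 5 for WDR11, and MIR548AE2 6.5 against 5 for LONP2. The remaining 7 symbols held between 5 and 268 tags, with MIR5009 the highest at 36 intron clusters and 75 and 198 tags. Introns carried 81.9% (77.2 to 85.8) of the clusters of all 13 symbols, against 95.1% (93.2 to 96.4) of those of the host transcripts.

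The well-known microRNA genes were mostly without an entry. Of 42 primary transcripts on a list of microRNA genes, 5 were in the table, MIR100HG with 14101 tags, MIR503 with 123, MIR424 with 12, and MIR17HG and MIR193B with 5 each. Among those without an entry were MIR21, MIR22, MIR31, MIR155HG and MIR200C. The list as planned also took in every let-7 symbol, which the count of 42 leaves out. Of these, MIRLET7A2 with 246 tags and MIRLET7BHG with 150 were in the table. Only clusters with tags in both libraries and at least 5 in all were listed, so fewer tags than that remain possible for each. Tags on a hairpin can also carry the symbol of its host, as MIR100 and MIR125B1 lie inside MIR100HG in GENCODE.

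Genes that process microRNAs or act with them were counted from another list. Of 20 such genes, 16 were in the table, with a median of 209 tags against 96 over all genes. Over 100 tags were held by 10 of the 16 that were in the table, beside 49.3% of all 7712 genes in the table. TNRC6B, a scaffold of the silencing complex, had 244 and 783 tags, of which 92.3% lay in its 3′UTR by the authors' total. DICER1, which cuts the hairpin in the cytoplasm, had 179 and 673 tags, and AGO2, which carries the mature microRNA, 123 and 443. DROSHA, which makes the first cut, had 5 and 17, and its partner DGCR8 had no entry. The nuclear helicases DDX5 and DDX17 had 772 and 823 tags in all. The tags of the 16 genes ranged from 5 for TNRC6C to 1014 for TNRC6B.

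Hosts of intronic microRNAs that carry a gene name of their own were counted from a further list. Of 38 such genes, 27 were in the table, with a median of 183 tags against 96 over all genes. FTX, a noncoding RNA on this otherwise protein-coding list, led with 8678 tags, 94.9% of them in introns, followed by LPP, the host of miR-28, with 4072, PTK2, the focal adhesion kinase, with 3683, and PANK3, a pantothenate kinase and host of miR-103a-1, with 2671. The intron share of the tags was 25.6% in LPP, 77.4% in PTK2 and 18.3% in PANK3. High tags in a host therefore did not mean that the tags lay in its introns. Of 7 noncoding hosts in another list, DLEU2, the host of miR-15a and miR-16-1, had 40 and 128 tags, all in introns, C9orf3, which is now known as a protein-coding aminopeptidase gene, had 49, and the other 5 had no entry.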

How the data were processed

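Members were chosen by gene symbol, and both the members and the lists of microRNA genes, hosts and processing genes were chosen with earlier results of these data known. The authors irradiated the cells, recovered Flag-RBM47 with its RNA, digested the RNA partly, added poly(A), reverse transcribed with a degenerate barcoded primer, collapsed the reads to unique tags and grouped overlapping tags into clusters. Novoalign and hg18 are named in the submitters' processing notes. The deposited table gives a count of tags for every cluster, by replicate and as the authors' total over both. That total was used for filters, ranks and medians, and was lower than both replicate columns added up in 172 of the 1050 clusters with a microRNA symbol. Column sums in the table were 999047 and 3489697 tags, a ratio of 3.49, so a cluster's level was less precise in replicate 1. These sums hold listed clusters only and are not library depths.

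Normalised tags are tags per 1000000 by the column sums. Each symbol was compared with RefSeq (GRCh38.p14) for chromosome, containing genes and mature sequences, and with GENCODE on GRCh37 for hosts on the same strand. No coordinate was carried between builds, coordinates are those of the file, and cluster length is end minus start. Values are given as mean ± SD with n = 2, and shares with Wilson intervals at 95%. The split between replicates was tested with a two-sided exact binomial test against the share of the column sums, with Benjamini-Hochberg adjustment and a threshold of 0.05, and was tested on simulated data. Genes named in the text were all symbols with a microRNA name, the genes that contain or neighbour them, and the leading genes of each list. Alternatives were a minimum of 10 or 30 tags, merging of clusters closer than 50 nt, leaving out host transcripts or a replicate, other weights and labels, and other expected shares. Python 3.11.15, numpy 2.4.6, scipy 1.17.1, pandas 2.3.3 and matplotlib 3.10.9 were used.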

Additional observations from a re-analysis of the deposited data

How the results depend on the processing

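Of 27 alternatives, 11 stayed within the limits set for no change and 16 moved the result. None reversed a result, but counts, shares and medians have no direction that could reverse. The number of clusters fell from 1050 to 516 with at least 10 tags, to 181 with at least 30 tags, to 663 when clusters closer than 50 nt were merged and to 322 without the host transcripts, and ranged from 274 to 809 when a replicate was left out. Without replicate 2 it was 274. The number of symbols fell from 36 to 13 with at least 30 tags and ranged from 18 to 30 without a replicate, 18 being the count without replicate 2. The share of tags moved from 5.74 to 6.23 per 1000 with at least 10 tags and to 1.40 without the host transcripts, and the median from 9 to 22 and to 7. Without a replicate the share ranged from 5.711 to 5.767 and the median from 2 to 8. The intron share moved from 90.4% to 87.4% with at least 10 tags, to 81.9% by tags and to 79.8% without the host transcripts. Each of these alternatives counts a smaller or merged set or weights it by tags. The MIR503 cluster was the single one called in every test of the split, with adjusted p between 3.11e-05 and 0.000523 in the alternatives, and the calls over all clusters numbered 18 when the share came from the median ratio, 12 with a beta-binomial test and 32 with at least 10 tags, against 26.

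No paired analysis was possible because both replicates belong to the same group. Most clusters hold few tags in replicate 1, so differences between libraries in clusters near the minimum of 5 tags were not detectable. No control library was analysed, and a mature microRNA, its hairpin and its host transcript cannot be told apart in these tags.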
